A study of Mus musculus with 4 samples.

Results

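Imprinted genes are described here in mouse spermatogonia before and after retinoic acid (RA) treatment. The set holds 39 genes, chosen as listed names that were matched to the gene column of the deposited table of 19991 genes. Of the 39, 38 had a row under the listed name, and 36 passed the filter on low values that 14108 genes passed in all, which asked for 20 normalized counts or more in 2 of the libraries or more. Rian has no row under that name and is not analysed here, and Dio3 and Magel2 were below the filter.

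Expression was measured by RNA-seq in undifferentiated spermatogonia (SG, 2 libraries), the dividing male germ cells among which the stem cells are found, and in differentiating spermatogonia (dSG, 2 libraries). All 4 samples were wild type cells cultured from testes. SG received DMSO, the solvent, and dSG received RA, the vitamin A derivative that starts spermatogonial differentiation, for 36 h. The labels give the RA dose as 100 µM, while the methods give the same figure in nM. The labels name the strain C57BL/6, while the methods name DBA mice or their F1 with GFP mice, taken at an early postnatal age. The cultures began from CD9+/c-Kit- cells sorted from testes and grew in Stempro34 medium with FGF, ESGRO, GDNF and EGF, and RA was given in Matrigel-coated dishes. Such a culture lacks the supporting cells of the tubule. The methods mention feeder cells where cells were collected for protein measurement. On what surface the SG of these libraries grew is not stated, so any difference in surface from dSG cannot be told apart from RA treatment. Whether the libraries of a group had separate cultures as their origin is not stated, so the p-values reflect no more than the spread of these libraries, and that spread may be technical.

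Imprinted genes are transcribed only or mainly from 1 parental copy in at least some somatic tissues, and for some the copy depends on the transcript. The choice is set by control regions whose DNA was methylated in either the sperm or the oocyte, and most imprinted genes sit in clusters that share such a region. In the male germ line the inherited marks are erased before birth and the paternal pattern is then laid down on both copies. Maternally and paternally expressed are therefore labels from somatic tissue, and the read counts used here do not separate the parental copies. In bulk samples, fewer cells of a type and less RNA per cell cannot be told apart.

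The germ cell identity of the samples was checked with a list of 8 markers. Their summed normalized count was 45641 and 47558 in SG and 56360 and 59369 in dSG. Of the 8, 3 were lower in both dSG libraries (32.7% of all tested genes were). Another 3 were higher in both (33.2% of all tested genes were), and 2 overlapped. Ddx4, an RNA helicase of germ cells, lay between 3601 and 5712 normalized counts in the 4 libraries. Kit, the receptor that marks differentiating spermatogonia, had 319 and 347 in SG and 5825 and 5921 in dSG. Depth ranged from 7484560 reads (SG replicate 1) to 26953654 (SG replicate 2). The SG libraries differed from each other by an SD of 0.81 (log2) over genes and the dSG libraries by 0.20. The difference between the SG libraries followed the GC content of the genes (Spearman rho 0.73 across genes, which are not independent replicates). Lars2, a single gene, took 18.3% of the reads of SG replicate 1 and between 3.66% and 5.60% elsewhere.

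Several imprinted transcripts start in short windows of known sequence, and those that the results below turn on are printed first. Each is the RefSeq window from 250 bases before to 50 bases after a transcription start on GRCm38.p6, in the direction of the gene. Capitals mark TGCCGC on either strand (GCGGCA on the other strand), the 6 letters known as the recognition motif of ZFP57, a protein that keeps methylation at imprinted control regions. Meg3 (chr12:109540746-109541045, plus strand), Mest (chr6:30737800-30738099, plus strand) and Plagl1 (chr10:13090582-13090881, plus strand) are shown as genes that fell and have a window with the motif, and Zim1 (chr7:6696383-6696682, minus strand) and Peg3 (chr7:6730370-6730669, minus strand) because both lie in the cluster whose values moved upwards.
Meg3: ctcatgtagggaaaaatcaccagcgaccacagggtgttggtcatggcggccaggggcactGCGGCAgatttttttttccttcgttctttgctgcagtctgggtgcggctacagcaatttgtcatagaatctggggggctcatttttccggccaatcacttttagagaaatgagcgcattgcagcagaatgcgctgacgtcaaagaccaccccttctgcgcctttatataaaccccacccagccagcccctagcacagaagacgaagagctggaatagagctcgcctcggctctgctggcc
Mest: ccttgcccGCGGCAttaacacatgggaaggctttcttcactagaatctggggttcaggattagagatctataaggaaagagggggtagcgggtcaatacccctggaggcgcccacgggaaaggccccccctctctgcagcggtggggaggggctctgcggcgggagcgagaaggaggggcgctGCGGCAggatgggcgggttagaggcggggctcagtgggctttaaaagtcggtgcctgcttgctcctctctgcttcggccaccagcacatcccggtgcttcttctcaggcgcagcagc
Plagl1: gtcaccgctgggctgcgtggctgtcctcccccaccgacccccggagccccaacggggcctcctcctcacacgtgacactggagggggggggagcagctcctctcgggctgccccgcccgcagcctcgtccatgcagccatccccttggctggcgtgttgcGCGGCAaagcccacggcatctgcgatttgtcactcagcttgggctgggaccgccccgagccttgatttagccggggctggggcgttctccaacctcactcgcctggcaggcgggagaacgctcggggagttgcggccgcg
Zim1: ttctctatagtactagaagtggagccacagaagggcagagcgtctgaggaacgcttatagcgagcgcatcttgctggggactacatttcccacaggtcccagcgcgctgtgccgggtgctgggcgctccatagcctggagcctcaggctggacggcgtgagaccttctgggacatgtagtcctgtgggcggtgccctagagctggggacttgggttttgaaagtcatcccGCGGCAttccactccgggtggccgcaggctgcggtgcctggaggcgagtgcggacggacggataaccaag
Peg3: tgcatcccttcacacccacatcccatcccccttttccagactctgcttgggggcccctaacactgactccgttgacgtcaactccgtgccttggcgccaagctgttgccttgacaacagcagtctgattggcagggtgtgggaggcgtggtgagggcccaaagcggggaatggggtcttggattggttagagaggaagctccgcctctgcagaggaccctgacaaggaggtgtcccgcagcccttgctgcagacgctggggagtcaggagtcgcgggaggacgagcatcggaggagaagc

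The printed Meg3, Plagl1 and Zim1 windows held 1 match each and the printed Mest window held 2. Of the 6 genes that fell, the windows of Gnas (4) and Rasgrf1 (1) held no match, and a match lay in 1 of 4 windows of Igf2, 1 of 2 of Meg3, 2 of 3 of Mest and the 1 window of Plagl1. The Peg3 window held none of these letters, nor did the window of Usp29 (chr7:6730333-6730632, plus strand), which shares 263 bases with it because both genes start head to head. RefSeq windows were found for 31 of the 39 genes, 46 windows in all. The motif lay in 12 of the 46 (26.1%), against 11.6% of the 32851 windows of the genome. Counted by gene, 11 of 31 (35.5%) had a match, against 13.1% of all genes. The member windows also held more CpG, with a median of 15.5 against 7.

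Some imprinted genes also hold microRNAs, and examples from H19, Meg3 and Rtl1 are shown because they lie within annotated exons of these genes, or opposite to them for Rtl1. In total, 50 mature microRNAs of RefSeq lie between the ends of 7 of the genes, 26 of them in Mirg and 13 in Rtl1, 11 of these on the strand opposite to Rtl1. Of the 50, 26 lie within exons of the gene on either strand, while the 2 in Igf2, the 2 in Mest and the 2 in Usp29 lie outside exons. Capitals mark the seed, bases 2 to 8 of the mature RNA.
miR-675-5p in H19: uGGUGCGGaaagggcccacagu
miR-770-5p in Meg3: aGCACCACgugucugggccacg
miR-127-3p opposite Rtl1: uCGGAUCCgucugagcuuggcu
miR-433-3p opposite Rtl1: aUCAUGAUgggcuccucggugu

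These 4 seeds all differ. Of the 50, only miR-453 and miR-496a-5p, both in Mirg, share a seed. The microRNAs themselves were not measured in these libraries.

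After RA, 6 imprinted genes fell and 1 rose. Those that fell were Gnas, Meg3, Mest, Rasgrf1, Igf2 and Plagl1, by between 2.99-fold and 11.7-fold, and the gene that rose was Peg3, by 2.80-fold. Calls required an adjusted p under 0.05 in limma-trend on log2(normalized count + 4), with Benjamini-Hochberg adjustment over the 14108 genes. The 6 lower calls are 16.7% of the 36 genes, against 4.91% of all tested genes, and the 1 higher call is 2.78%, against 1.16%. The median change was -0.20 (log2), against 0.01 over all tested genes. Both dSG libraries lay below both SG libraries for 18 of the 36 (32.7% of all tested genes did so), above for 10 (33.2% of all), and the groups overlapped for 8.

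The number of calls depended on the libraries. Without SG replicate 1 there were 16 lower and 10 higher calls, and without SG replicate 2 there were 17 and 10. In both fits the spread came from the close dSG pair alone, and 8434 and 11452 of all 14108 genes were called. Without dSG replicate 1 there was 1 lower call and without dSG replicate 2 there were 2, Gnas being the 1 of the 7 that was kept in either fit, and the spread came from the SG pair alone. With a correction for GC content in each library, 10 were lower and 4 higher, against 1628 and 1528 of 14102 genes in all. This added Mirg, Rtl1, Phlda2 and Sfmbt2 to the lower and Zim1, Ascl2 and Zdbf2 to the higher calls. DESeq2 on the recovered reads called 8 lower and 2 higher (1468 and 468 of 14108 in all), adding Phlda2, Rtl1 and Ube3a to the 7.

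**Figure D1:**
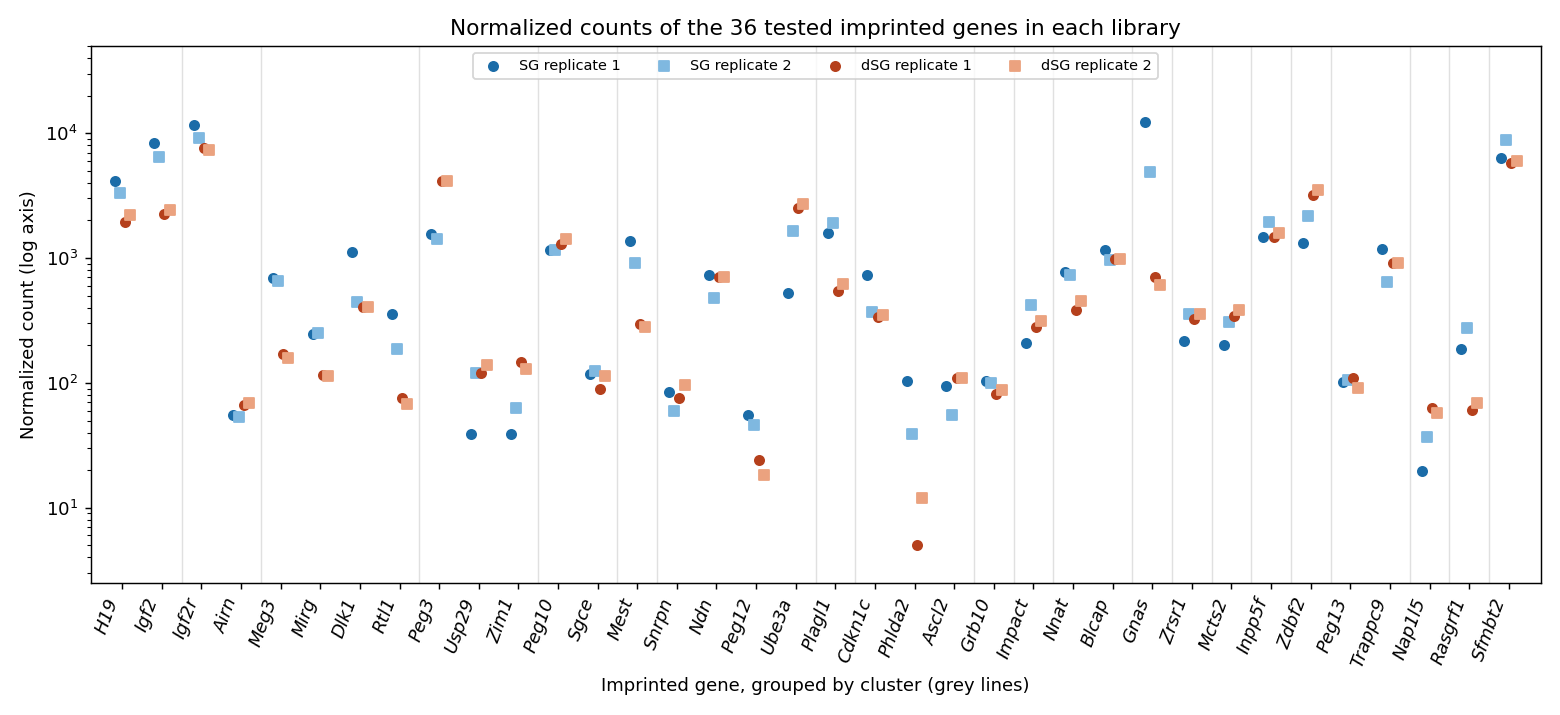
Normalized counts (log axis) of the 36 tested imprinted genes, in the order of their clusters, with 1 point for each library (blue SG, red to orange dSG). The dSG points of Igf2, Meg3, Mest, Plagl1, Gnas and Rasgrf1 lie below both SG points and those of Peg3 lie above, while the SG points of Gnas span 4894 to 12185.

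The H19-Igf2 cluster holds a growth factor and a noncoding RNA under 1 sperm-methylated control region. Igf2, the fetal growth factor (ENSMUSG00000048583, chr7:142650766-142666816 of GRCm38, minus strand), had 8369 and 6470.0 normalized counts in SG and 2253 and 2406 in dSG. Both dSG libraries were lower, and Igf2 fell by 1.66 on the log2 scale (SE 0.21, adjusted p = 0.0308, limma with Benjamini-Hochberg). H19, a long noncoding RNA, had 4149 and 3321 in SG and 1938 and 2199 in dSG. The groups did not overlap, but the difference of -0.85 (95% confidence interval -1.39 to -0.30) was not called (adjusted p = 0.0928, limma), and it was -0.33 with the GC correction. The ratio of Igf2 to H19 reads was 2.02 and 1.95 in SG and 1.16 and 1.09 in dSG. Ratios of this kind are free of the library size factor but are not corrected for GC content. Igf2 shares 76.2% of its longest transcript with the annotated gene Gm49394, and how reads in the shared part were assigned is not stated.

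Igf2r and Airn lie on opposite strands of the locus that encodes the receptor taking IGF2 to lysosomes. Igf2r had 11533 and 9192 normalized counts in SG and 7637 and 7403 in dSG, and Airn, the antisense noncoding RNA known to silence Igf2r in somatic cells, had 55.4 and 53.5 in SG and 66.0 and 69.5 in dSG. Neither was called. The interval of the difference was -0.99 to 0.08 (log2) for Igf2r and -0.36 to 0.95 for Airn. The ratio of Igf2r to Airn reads was 208 and 172 in SG and 116 and 107 in dSG. With the GC correction the difference was -0.21 for Igf2r and 0.15 for Airn, both smaller than without it.

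In the Dlk1-Dio3 cluster the values of the noncoding RNAs and of the protein-coding genes lay lower in dSG, with 1 call. Meg3, a long noncoding RNA (ENSMUSG00000021268, chr12:109541001-109571726 of GRCm38, plus strand), had 697 and 656 normalized counts in SG and 169.7 and 159.6 in dSG. All dSG values were below all SG values, and Meg3 fell by 2.01 on the log2 scale (SE 0.20, adjusted p = 0.0254, limma). This was the smallest adjusted p of the 36 genes over all 4 libraries.

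Mirg, a noncoding RNA that carries many microRNAs, had 248 and 249.8 in SG and 116 and 113 in dSG. The groups did not overlap, but the difference of -1.09 (-1.65 to -0.53) was not called (adjusted p = 0.0620, limma). The value of Mirg in SG replicate 1 rests on 76 reads. The ratio of Meg3 to Mirg reads was 2.82 and 2.62 in SG and 1.46 and 1.41 in dSG, so Meg3 reads lay lower by more than Mirg reads did.

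Rtl1, a protein-coding gene derived from a retrotransposon, had 358 and 188 in SG and 75.4 and 68.2 in dSG. The difference was -1.80 (-2.80 to -0.79), with an adjusted p of 0.0724 (limma). Dlk1, a transmembrane protein related to Notch ligands, had 1121 and 446 in SG and 404 and 402 in dSG. Its SG libraries differed more from each other than SG replicate 2 did from dSG, and its interval ran from -2.07 to 0.47. Without SG replicate 1 the difference of Dlk1 was -0.14. Dio3, the deiodinase that inactivates thyroid hormone, was below the filter with 16.3 and 13.8 in SG and 2.90 and 3.13 in dSG. The median change of the 4 tested genes of the cluster was -1.44.

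The Peg3 cluster was the only one of at least 3 tested genes in which every gene had a positive difference, with 1 of 3 called. Peg3, a zinc finger protein (ENSMUSG00000002265, chr7:6703892-6730431 of GRCm38, minus strand), had 1548 and 1410.2 normalized counts in SG and 4174 and 4128 in dSG. Peg3 rose by 1.49 (SE 0.17, adjusted p = 0.0276, limma), and both dSG libraries lay above both SG libraries. Zim1, a zinc finger gene next to it that is maternally expressed, had 39.1 and 62.9 in SG and 147 and 128 in dSG. Its difference was 1.39 (0.54 to 2.25) at an adjusted p of 0.0831 (limma), and 0.89 with the GC correction. Usp29, which encodes a deubiquitinase related protein, had 39.1 and 119.6 in SG and 121 and 140.2 in dSG, with SG replicate 2 close to the dSG libraries and an interval of -0.61 to 2.37. Without SG replicate 1 its difference was 0.12. Usp29 shares 35.5% of its longest transcript with Zim3 and Gm27675. Peg3 and Zim1 carry opposite parental labels, and the ratio of their reads was 39.6 and 22.4 in SG and 28.5 and 32.2 in dSG, with overlapping groups.

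**Figure D2:**
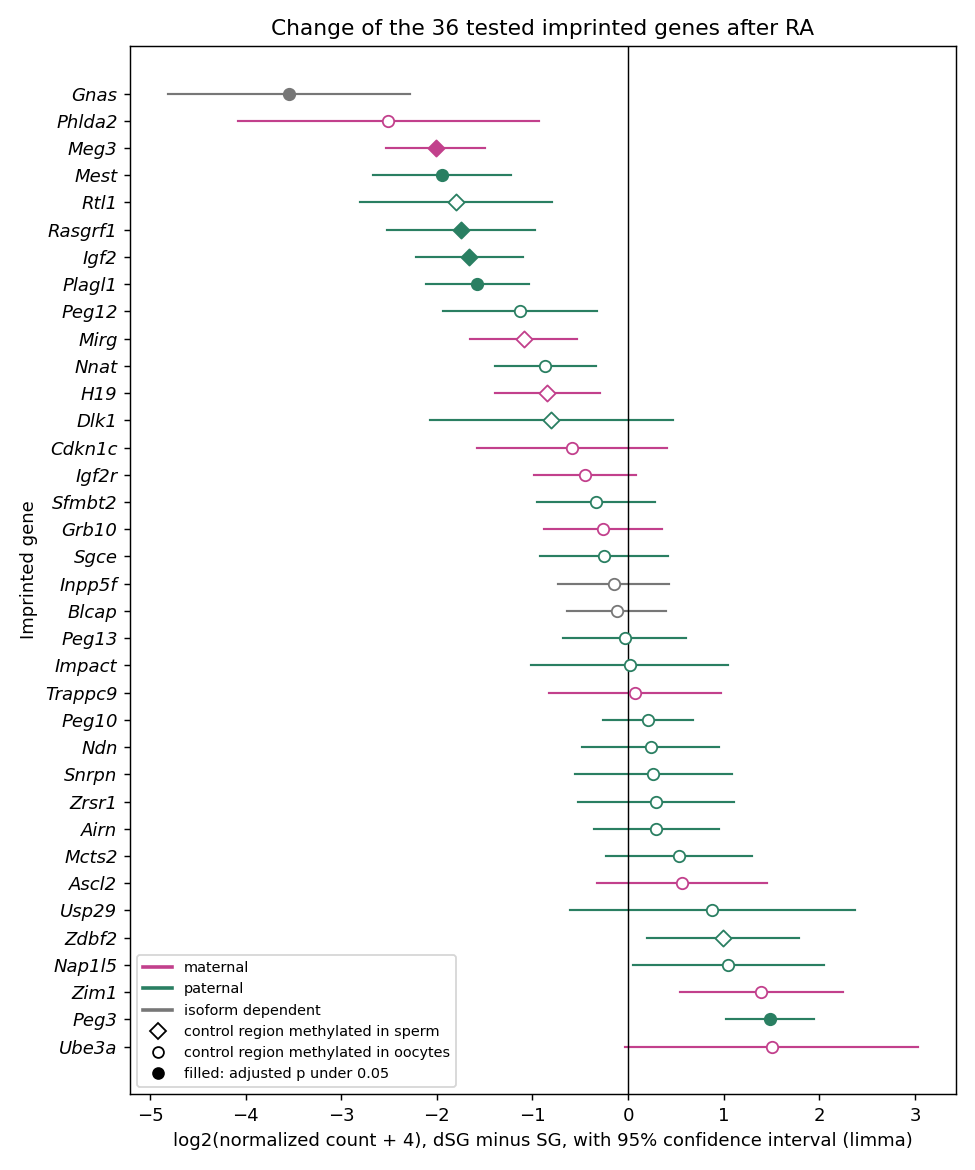
Difference of dSG minus SG in log2(normalized count + 4) for each of the 36 tested imprinted genes, with its 95% confidence interval from limma. Colour gives the expressed parental copy in somatic tissue, diamonds mark genes of sperm-methylated control regions and filled symbols the 7 called genes, from Gnas at -3.55 to Peg3 at 1.49.

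Gnas, the gene of the stimulatory G protein alpha subunit (ENSMUSG00000027523, chr2:174284320-174346744 of GRCm38, plus strand), had the largest difference of the 36. It had 12185 and 4894 normalized counts in SG and 712 and 605 in dSG. The SG libraries differed from each other by far more than the dSG libraries, yet both were above dSG, and Gnas fell by 3.55 (SE 0.48, adjusted p = 0.0329, limma). The difference was -2.89 without SG replicate 1 and -2.89 with the GC correction. Nespas, the noncoding RNA that runs antisense within the locus, had 642 and 810.5 in SG and 461 and 471 in dSG, and was not called. The ratio of Gnas to Nespas reads was 19 and 6.04 in SG and 1.54 and 1.29 in dSG. Gnas makes several transcripts that differ in their parental copy, which the gene row adds together, and 22.0% of its exon bases lie under genes of the other strand.

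Mest, Plagl1 and Rasgrf1 are paternally expressed in somatic tissue. Mest, a member of the alpha/beta hydrolase fold family (ENSMUSG00000051855, chr6:30723547-30748465 of GRCm38, plus strand), had 1382 and 913 normalized counts in SG and 298 and 280.4 in dSG. Mest fell by 1.94 (SE 0.27, adjusted p = 0.0345, limma). It shares 34.2% of its longest transcript with Copg2 on the other strand, which had 1169.9 and 1978 in SG and 2392 and 2535 in dSG and was not called. The ratio of Mest to Copg2 reads was 1.18 and 0.462 in SG and 0.125 and 0.111 in dSG.

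Plagl1, a zinc finger transcription factor (ENSMUSG00000019817, chr10:13060504-13131694 of GRCm38, plus strand), had 1587 and 1908 in SG and 547 and 615 in dSG. Plagl1 fell by 1.58 (SE 0.20, adjusted p = 0.0309, limma), with no overlap between the groups. Rasgrf1, an exchange factor that activates Ras (ENSMUSG00000032356, chr9:89909908-90026977 of GRCm38, plus strand), had 186 and 273 in SG and 60.2 and 68.8 in dSG. Rasgrf1 fell by 1.75 (SE 0.29, adjusted p = 0.0470, limma), which is the call nearest to the threshold.

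**Figure D3:**
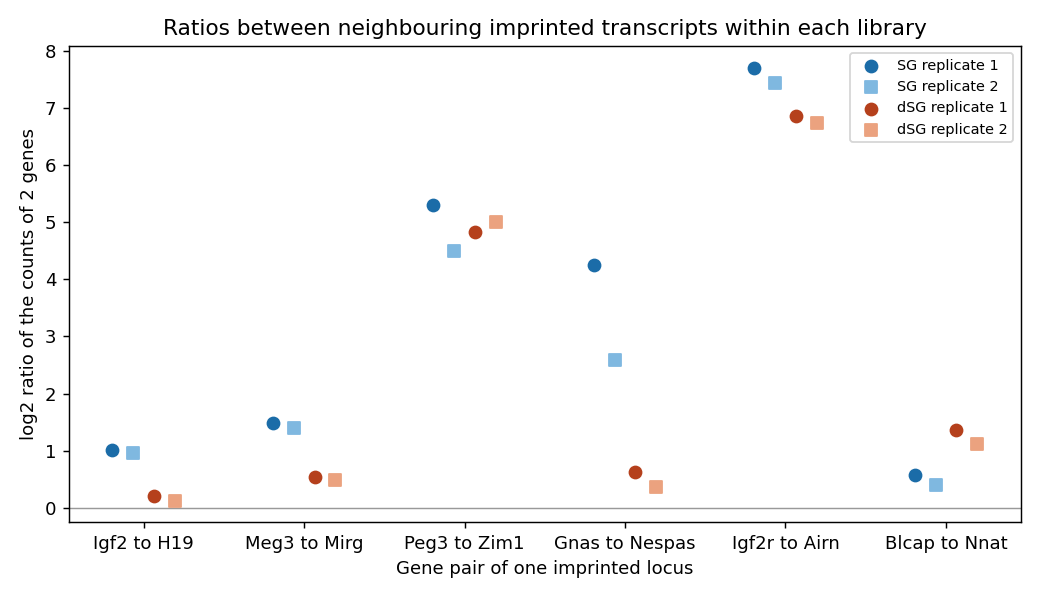
Ratio of the reads of neighbouring imprinted transcripts within each library (log2), with 1 point for each of the 4 libraries and no correction for GC content. The ratios of Igf2 to H19, Meg3 to Mirg, Gnas to Nespas and Igf2r to Airn are lower in both dSG libraries, that of Blcap to Nnat is higher, and that of Peg3 to Zim1 overlaps between SG and dSG.

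In the Kcnq1 cluster the 3 growth regulators did not share a direction, and none was called by limma over all 4 libraries. Phlda2, which restrains placental growth, had 104 and 39 normalized counts in SG and 5.08 and 11.9 in dSG. Its difference was -2.51 (-4.08 to -0.94), with an adjusted p of 0.0869 (limma). Its dSG values rest on 7 and 19 reads, and the difference was -1.84 without SG replicate 1, -1.94 with the GC correction and -1.14 with a pseudocount of 40. Cdkn1c, an inhibitor of cyclin-dependent kinases, had 727 and 368 in SG and 339 and 348 in dSG, so that SG replicate 2 lay close to the dSG libraries. With the GC correction its difference of -0.59 became 0.18. Cdkn1c shares 31.1% of its longest transcript with Gm44732 on the other strand. Ascl2, a basic helix-loop-helix factor of the placenta, had 94.5 and 55.4 in SG and 109 and 109.5 in dSG, a difference of 0.57 with an interval of -0.33 to 1.46. With the GC correction the difference of Ascl2 was 1.34 and was called (adjusted p = 0.0135, limma).

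The Snrpn-Ube3a cluster was mixed as well. Ube3a, a ubiquitin ligase, had 521 and 1641 normalized counts in SG and 2524 and 2732 in dSG, with the SG libraries far apart. Its difference was 1.5 (-0.03 to 3.03) over all libraries and 0.68 without SG replicate 1. Its longest transcript shares 31.1% with genes on the other strand, Snhg14 among them, which had 32.6 and 188 in SG and 379 and 433 in dSG and was not called (adjusted p = 0.178, limma).

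Peg12, an intronless paternally expressed gene, had 55.4 and 45.9 in SG and 23.9 and 18.2 in dSG, at an adjusted p of 0.108 (limma), and its difference of -1.13 was -0.52 with the GC correction. Ndn, of the MAGE family, had 737 and 483 in SG and 704 in both dSG libraries. Snrpn, which encodes a spliceosomal protein, had 84.7 and 59.1 in SG and 76.2 and 97.0 in dSG. Both overlapped between the groups. Snrpn shares 32.4% of its longest transcript with other genes, Snurf among them. Magel2, another MAGE gene, was below the filter with 6.52 and 4.40 in SG and 18.9 and 32.5 in dSG.

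Nnat lies within an intron of Blcap on the opposite strand. Nnat, a small membrane protein of the endoplasmic reticulum, had 779 and 736 normalized counts in SG and 381 and 451 in dSG, a difference of -0.86 (-1.40 to -0.33) that was not called (adjusted p = 0.0842, limma). With the GC correction the difference was -0.15. Blcap had 1167 and 968 in SG and 979 and 974 in dSG, and its ratio to Nnat was 1.5 and 1.31 in SG and 2.57 and 2.16 in dSG. The difference of Blcap was -0.12, and 0.20 with the GC correction.

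Imprinted retrogenes were compared with the genes in whose introns they lie. Nap1l5, related to nucleosome assembly proteins, had 19.6 and 37.1 normalized counts in SG and 63.1 and 57.6 in dSG, and its host Herc3 had 1128 and 1149.6 in SG and 2129 and 2118 in dSG. The differences were 1.05 (adjusted p = 0.177, limma) and 0.90 (adjusted p = 0.0600). Mcts2 had 202 and 309 in SG and 341 and 387 in dSG, a difference of 0.53 beside -0.20 for its host H13. Zrsr1, a splicing factor gene, had 218 and 357 in SG and 327 and 359 in dSG, a difference of 0.29 beside -0.12 for its host Commd1. None of these genes was called by limma without the GC correction. Of the 4 listed host genes, DESeq2 called 1 higher (468 of 14108 genes in all). The GC correction also called 1 of them higher (1528 of 14102).

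Zdbf2, a zinc finger gene expressed from the paternal copy, had 1310.1 and 2178 normalized counts in SG and 3215 and 3517 in dSG. Its difference of 0.99 (0.20 to 1.79) was not called (adjusted p = 0.133, limma), although the groups did not overlap, and it was 0.46 with the GC correction. It was the only tested gene of the sperm-methylated group with a positive difference.

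The remaining 8 tested genes differed by less than 0.35 in size (log2) over all 4 libraries, and none was called there. Sfmbt2, a Polycomb group protein, was the highest of them with 6283 and 8772 in SG and 5777 and 5975 in dSG. Peg10, a retrotransposon-derived gene needed in the placenta, had 1167 and 1170.4 in SG and 1286 and 1414 in dSG, and its neighbour Sgce, a sarcoglycan, had 117 and 125 in SG and 89.2 and 114 in dSG. Grb10, an adaptor that restrains insulin receptor signalling, had 104 and 100.1 in SG and 81.2 and 88.2 in dSG. With the GC correction Sgce was at -1.07 (adjusted p = 0.111, limma) and Sfmbt2 at -0.52, which was called (adjusted p = 0.0366). Over all 4 libraries the intervals of these 4 genes ran from -0.95 at the lowest to 0.68 at the highest. Impact, Inpp5f, Peg13 and Trappc9 each had overlapping groups, and the sign of each turned under at least 1 other setting.

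By parental label, 1 of 11 maternally expressed genes (Meg3) and 4 of 22 paternally expressed genes (Igf2, Mest, Plagl1, Rasgrf1) were called lower, against 4.91% of all tested genes, and Peg3, the gene called higher, is paternally expressed (1.16% of all were higher). The median change was -0.45 for the maternally and -0.01 for the paternally expressed genes, against 0.01 over all tested genes. The gap between these medians depended on the setting. They were -0.23 and -0.10 without SG replicate 1, -0.62 and -0.04 without SG replicate 2, and -0.21 and -0.12 with the GC correction. Of the maternally expressed genes, 7 had a negative and 4 a positive difference, and of the paternally expressed 11 and 11. Gnas, called lower, is 1 of 3 genes whose expressed copy depends on the transcript.

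Grouped by control region, 3 of 8 genes of sperm-methylated regions (Igf2, Meg3, Rasgrf1) and 3 of 28 of oocyte-methylated regions (Gnas, Mest, Plagl1) were called lower, against 4.91% of all genes. Of the 8, 7 had a negative difference, as did 6940 of all 14108 tested genes. Both dSG libraries lay below both SG libraries in each of the 7 (32.7% of all tested genes did so). The median of the 8 was -1.37. For the 28 the median was -0.01, with 14 negative and 14 positive. The median of the 8 was -1.22 without SG replicate 1, -1.47 without SG replicate 2 and -0.96 with the GC correction. The 8 come from only 4 loci, so they are not independent of each other. Zdbf2 is placed among the 8 by a sperm-methylated region, although its locus also has an oocyte-methylated one, and without it the median of the other 7 was -1.66.

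**Figure D4:**
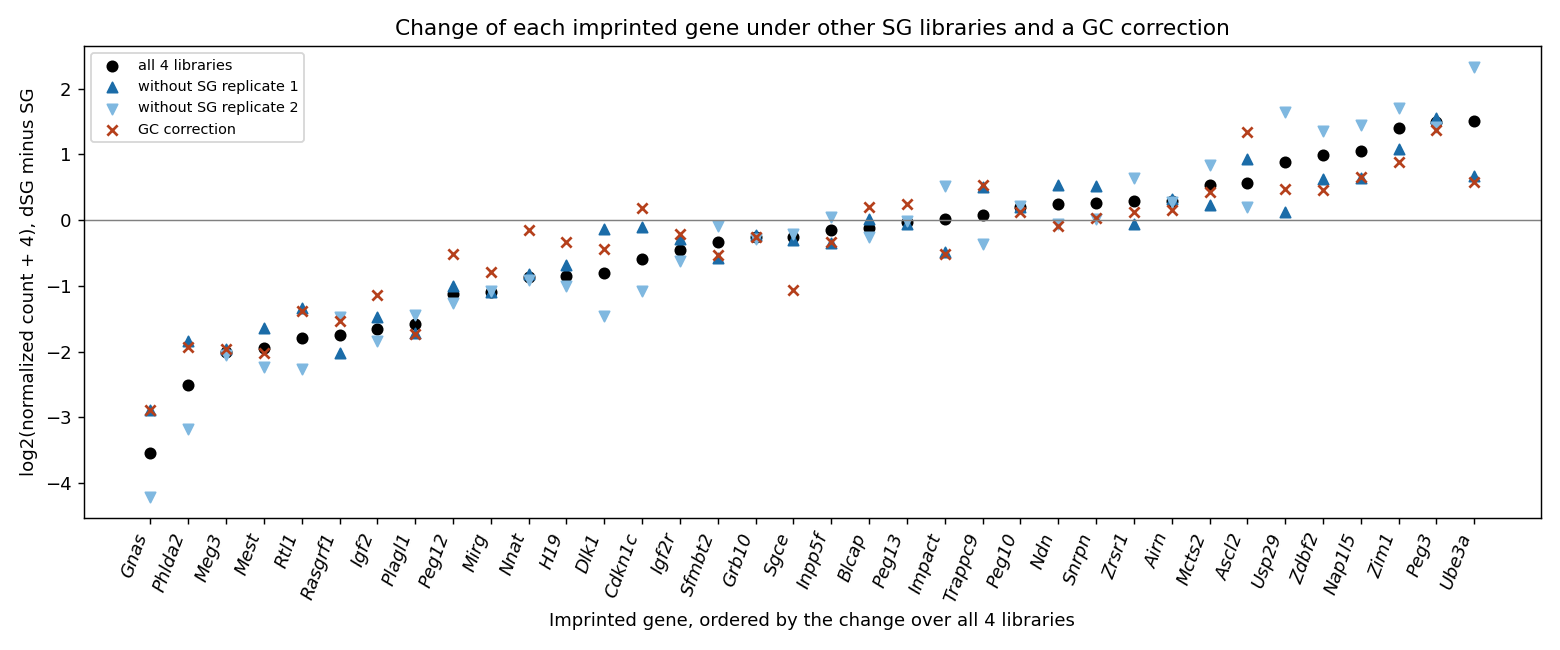
Difference of dSG minus SG in log2(normalized count + 4) for the 36 imprinted genes over all 4 libraries (black), without each SG library (blue triangles) and with a GC correction in each library (red crosses). Meg3, Peg3 and Plagl1 stay close together, while Ube3a spans 0.58 to 2.32 and Gnas -4.21 to -2.89.

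Compared per kilobase of the longest transcript, the highest imprinted genes in SG were Gnas at 2163 normalized counts per kb, H19 at 1634, Igf2 at 1571 and Igf2r at 1166. Gnas was at 3087 in SG replicate 1 and at 1240 in SG replicate 2, where it lay below H19 (1453) and Igf2 (1370.2). In dSG they were H19 at 905, Igf2r at 846, Sfmbt2 at 746 and Igf2 at 493, and Gnas had 167. Peg3 was at 170.1 per kb in SG and at 477 in dSG. At the low end of the tested genes, Zim1 had 6.63 per kb in SG and Peg12 had 7.97 in dSG. These are group means of 2 libraries.

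Proteins that set or keep imprints were read as a list of 20, of which 18 were tested and 4 were called lower (22.2%, against 4.91% of all tested genes). Zfp57, which keeps methylation at imprinted control regions, had 401 and 357 normalized counts in SG and 99.4 and 122 in dSG, and fell by 1.74 (SE 0.23, adjusted p = 0.0327, limma). Uhrf1, which guides maintenance methylation to replicated DNA, had 18276 and 13080.3 in SG and 4979 and 4907 in dSG, and fell by 1.64 (SE 0.23, adjusted p = 0.0350). Kdm1b, a histone demethylase needed for imprints in the oocyte, had 3907 and 3635 in SG and 1689 and 1716 in dSG, and fell by 1.14 (SE 0.17, adjusted p = 0.0385).

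Dnmt3l, the cofactor of de novo DNA methylation in germ cells, was low throughout, with 55.4 and 37.8 in SG and 0.725 and 5.01 in dSG, and fell by 2.93 (SE 0.47, adjusted p = 0.0436, limma). The dSG values of Dnmt3l rest on few reads. For all 4 genes the dSG libraries lay below the SG libraries. Of the other 14 tested regulators, none was called by limma without the GC correction, edgeR or DESeq2. Among them, 3 (Tet2, Tet3 and Zfp445) had a positive difference at an unadjusted limma p under 0.05, against 10.5% of all tested genes. With the GC correction 4 of the 18 were called lower and 2 higher, against 1628 and 1528 of 14102 genes.

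A further list of 38 imprinted genes outside the 39 had 23 tested genes. None was called by limma without the GC correction or by edgeR. DESeq2 called 1 lower and 2 higher (1468 and 468 of 14108 in all). The GC correction called 2 lower and 5 higher, against 1628 and 1528 of 14102 genes in all. At an unadjusted limma p under 0.05 there were 3 lower and 5 higher, against 16.3% lower and 10.5% higher of all tested genes. The median change of the 23 was 0.02.

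Marker sums of fibroblasts, Sertoli, endothelial and peritubular myoid cells were lower in dSG, as were the imprinted genes that fell, while those of Leydig cells were higher and those of macrophages and blood overlapped. The summed normalized count of 12 fibroblast and feeder markers was 8418 and 4160 in SG and 956 and 875 in dSG, mostly Col1a1 and Pdgfra. Of the 5 of these that were tested, 4 were lower in both dSG libraries (32.7% of all tested genes were). The remaining 1 was higher in both, by 1.60 on the log2 scale (33.2% of all tested genes were higher in both). S100a4 had no reads in SG. Lum and Dcn, defining genes of fibroblasts, were at or below 0.629 in SG and between 4.38 and 8.70 in dSG, and Col3a1 was at or below 9.43 in all libraries. The fibroblast and feeder list also includes Thy1 (CD90), which the paper uses as a surface marker of undifferentiated spermatogonia. The sum of 8 Sertoli cell markers was 808 and 532 in SG and 218 and 230 in dSG, with 3 of 6 tested markers lower in both dSG libraries, against the same 32.7%. The sum of 5 endothelial markers was 544 and 571 in SG and 215 and 248 in dSG. Of the 5, 3 were lower in both dSG libraries, again against 32.7%, and 1 was higher in both, by 1.01, against 33.2%. The sums of macrophage and blood markers ranged from 362 to 500 in SG and from 426 to 452 in dSG. Those of Leydig cell markers were 215 and 317 in SG and 367 and 351 in dSG. Of the 2 tested Leydig cell markers, 1 was higher in both dSG libraries (33.2% of all tested genes were) and 1 overlapped. Hsd3b1 and Insl3 had no reads in SG, and Cyp11a1 had none in dSG. The sums of peritubular myoid markers were 222 and 125 in SG and 87.0 and 109 in dSG. The part of these cell types in the imprinted gene differences was not tested.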

How the data were processed

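Total RNA of 2 SG and 2 dSG samples was sequenced in paired ends from directional libraries. The authors aligned reads to GRCm38 with Subread and made gene counts with featureCounts 1.5.3. For the counting, the annotation release and strand setting are not given in the sources used. Reads from overlapping genes on either strand may therefore have been shared, left out or put in the wrong row.

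The deposited signal values are normalized counts, reads scaled by 1 size factor per library. The table is named for RPKM, but 100.0% of values were whole multiples of 1 step (tolerance 0.01). The authors also deposited log2 fold changes with standard errors, a score (the Wald statistic) and p-values of their own DESeq2 comparison, none of which was used.

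Limma-trend (limma 3.58.1, R 4.3.3) was run on log2(normalized count + 4) with condition as the only term. Benjamini-Hochberg adjustment covered all 14108 genes with at least 20 normalized counts in at least 2 libraries. On the recovered reads, edgeR 4.0.16 called 847 genes lower and 197 higher, and DESeq2 1.42.0 called 1468 and 468. Only the main limma, edgeR and DESeq2 fits were also run on simulated counts. These had the same dispersion in every library and no GC effect, unlike the real libraries, so they do not show how the fits behave here. Other settings were quantile normalization, upper quartile scaling, other filters and pseudocounts, no trend, a loess correction for GC content, a replicate block and leaving out each library. The libraries of a pair differed by far more than counting error (chi-square per degree of freedom 214 for SG and 12.4 for dSG), so none was a copy and counting intervals were not used.

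All 39 genes are accounted for, those called and those of their clusters with all 4 values. From the lists of other imprinted genes, imprint regulators and host genes, called genes are named, and others where a result turns on them, such as antisense partners and the hosts of retrogenes. Marker lists covered germ, fibroblast and feeder, Sertoli, Leydig, peritubular myoid, macrophage and blood, and endothelial cells. The genes and lists were chosen with earlier results of these data known. Parental labels and control regions are textbook knowledge, and gene positions and overlaps come from GENCODE on GRCm38.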

Additional observations from a re-analysis of the deposited data

How the results depend on the processing

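The 7 calls kept their direction under every setting. All 7 were called by edgeR and DESeq2, with quantile normalization, with a pseudocount of 0.4 and without trend. They were also all called with the GC correction and with the replicate block. Leaving out a library leaves its group with 1 library, so calls in those fits are not read as support. Of the 7, 6 were kept without a filter, with upper quartile scaling and with a pseudocount of 40, and 5 of 7 were kept with the stricter filter. Lower and higher calls were 8 and 2 with DESeq2 (1468 and 468 of 14108 genes in all). With the GC correction the calls were 10 and 4 (1628 and 1528 of 14102 genes). They ranged from 1 to 17 and from 0 to 10 when single libraries were left out, which leaves the spread of 1 pair to judge all genes by. When a dSG library is left out, limma takes its spread from the SG pair. The labels give SG and dSG the same replicate numbers but no shared origin. With the replicate block 9 were lower and 4 higher, against 1790 and 1150 of 14108 genes in all. The correlation of same-numbered deviations was 0.23 over 2 pairs. The median change stayed between -0.26 and -0.10. Signs turned only in genes that were not called over all 4 libraries. With the GC correction the difference was 0.20 for Blcap, 0.18 for Cdkn1c, -0.52 for Impact, -0.095 for Ndn and 0.25 for Peg13. Impact was at -0.083 with edgeR and -0.072 with DESeq2, and Peg13 at 0.083 with quantile normalization and 0.039 with upper quartile scaling. With single libraries left out, values ranged from -0.26 to 0.013 for Blcap, -0.48 to 0.51 for Impact, -0.35 to 0.048 for Inpp5f, -0.065 to 0.54 for Ndn, -0.17 to 0.094 for Peg13, -0.36 to 0.51 for Trappc9 and -0.058 to 0.64 for Zrsr1. The cause was not tested. SG replicate 1 is the shallowest library, and 1 of its reads equals 3.26 normalized counts, so low genes such as Nap1l5, Zim1 and Usp29 rest on few reads there.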
